A study of Mus musculus with 12 samples.

Results

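The 9 genes described here encode proteins that carry the insulin signal in muscle, from the insulin receptor to the kinase AKT and its targets TBC1D1 and TBC1D4. They are Insr, Irs1, Irs2, Pik3r1, Pik3ip1, Akt1, Akt2, Tbc1d1 and Tbc1d4, and they are 9 of the 22206 transcript clusters on the array. The genes were listed with earlier results of these data known, and their rows were found by gene symbol. Each had a single row in the deposited table, and each signal was summarised from 10 probes. Total RNA from the M. gastrocnemius, a calf muscle, of each mouse was hybridised to its own array, a Clariom S design for mouse. The P1.2 group was 6 male C57BL/6J mice fed a diet with 1.2% phosphorus for 6 weeks, and the P0.3 group was 6 male C57BL/6J mice fed the adequate diet with 0.3% phosphorus for the same time. All mice were 19 weeks old when bought, and the labels give an age of 6.5 months for both groups. Both diets contained potassium dihydrogen phosphate, and potassium bicarbonate in the P0.3 diet kept potassium equal. The arrayed mice were 6 of 12 fed each diet, they were kept in cages of 2, and the cage of each mouse is not given in the labels, so p-values treat the mice as independent.

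Insulin binds its receptor, a tyrosine kinase, which phosphorylates the adaptor proteins IRS1 and IRS2. These recruit PI3-kinase, the lipid product of PI3-kinase brings AKT to the membrane, and AKT phosphorylates TBC1D4 and TBC1D1. TBC1D4 and TBC1D1 are Rab GTPase-activating proteins that hold the glucose transporter GLUT4 inside the muscle fibre until they are phosphorylated, and skeletal muscle takes up much of the glucose after a meal by this route. Most of this signal runs through phosphorylation, which an array of transcripts does not measure.

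The sequences upstream of Irs1, Irs2 and Akt1 are shown because they hold the only matches to the motifs searched in the promoters of the 9 genes. The RefSeq promoter table (GRCm38.p6) gave 14 windows for 8 of the 9 genes (all but Insr), each running from 250 bases before to 50 bases after a start site. The forkhead motif GTAAACA, read on both strands because FOXO factors are targets of AKT, was in 1 of the 14 windows (7.14%), that of Akt1, and in 3.65% of all 32851 windows of that length. The E-box CACGTG, which reads the same on both strands, was in 2 of the 14 windows (14.3%), those of Irs1 and Irs2, and in 7.15% of all windows. Counts this small do not set the 9 genes apart from other genes. The E-box was added after the sequences had been read. The stretches run 5′ to 3′ on the strand of the gene, with the match in capitals.
Irs1, chr1:82291524-82291579, minus strand: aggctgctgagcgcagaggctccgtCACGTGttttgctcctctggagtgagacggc
Irs2, chr8:11008943-11008998, minus strand: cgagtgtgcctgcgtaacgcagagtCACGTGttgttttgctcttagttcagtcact
Akt1, chr12:112675014-112675070, minus strand: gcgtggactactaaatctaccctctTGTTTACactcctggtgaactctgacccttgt
The match began 115 bases before the start site of its window in Irs1, 44 bases before it in Irs2 and 161 bases before it in Akt1. In the array annotation the 5′ end of Irs2 is at base 11008458, downstream of the start site of its window. The Irs2 match therefore lies farther from that 5′ end than from the start site of the window. In Irs1 and Irs2 the 6 bases of the E-box lay in a shared run of 10 bases. A match is a description of letters and not a measured binding site.

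In the muscle of P1.2 mice, 2 of the 9 genes were higher than in P0.3 mice at the study criteria, which ask for a change of more than 1.3-fold together with a p, not adjusted, below 0.05. These were Akt2, the AKT isoform that insulin uses to move GLUT4, and Pik3ip1, an inhibitor of PI3-kinase. No gene of the 9 was lower at these criteria. Of all 22206 transcripts, 0.919% were higher and 1.36% were lower at the same criteria with limma. Because the 9 genes were listed with earlier results of these data known, their count is not a test against these shares. After adjustment over all transcripts no gene of the 9 passed, and the adjusted limma p of each was 0.9999. With limma, 0 transcripts of the whole table had an adjusted p under 0.05 and 722, or 3.25%, had an unadjusted p under 0.05. The median log2 fold change was 0.08 over the 9 genes and -0.01 over all transcripts, and 5 of the 9 genes had a positive one. In none of the 9 genes were the groups free of overlap, as they were in 0.153% of all transcripts.

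All values are log2 signals, on which a difference of 0.38 is 1.3-fold. A log2 signal depends on its probes, so levels are compared between mice and not between genes. All 9 genes were measured well above the dim range, as their mean signals lay over 6.11, the level below which 95% of 1451 olfactory and vomeronasal receptor transcripts lie. The median of all transcripts was 6.34. The array medians were between 6.29 and 6.40, and no array stood apart by its median. The muscle markers Acta1, Ckm, Mb, Des, Ttn and Myh4 had a mean signal of 18.39 to 18.86 in the P1.2 group and 18.33 to 18.92 in the P0.3 group. The markers of slow fibres split the arrays. The mean of 10 slow fibre genes was 12.39 to 13.67 on 4 arrays, those of P1.2 mice 2 and 12 and P0.3 mice 9 and 11, and 8.39 to 10.85 on the other 8. The mean of 11 genes that respond to glucocorticoids and fasting was 11.53 to 13.53 (median 12.22) in the P1.2 group and 11.62 to 12.15 (median 11.77) in the P0.3 group, with P1.2 mice 6 and 12 the highest at 13.53 and 13.11. None of the 11 passed the study criteria. Of the 11, Mt2 had the widest range, at 8.87 to 16.68 in the P1.2 group, so it weighs heavily in differences of this mean. The place of P1.2 mice 6 and 12 without Mt2 was not tested. Adipocyte markers, of which 6 of 8 lay above the dim range, had a mean of 6.81 to 8.40 in the P1.2 group and 6.82 to 7.98 in the P0.3 group. Of these 8 markers only Lep passed the criteria, with a log2 fold change of -0.55 and a mean of 5.47, in the dim range. In whole muscle, fewer cells of a type and less RNA per cell cannot be told apart.

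**Figure D1:**
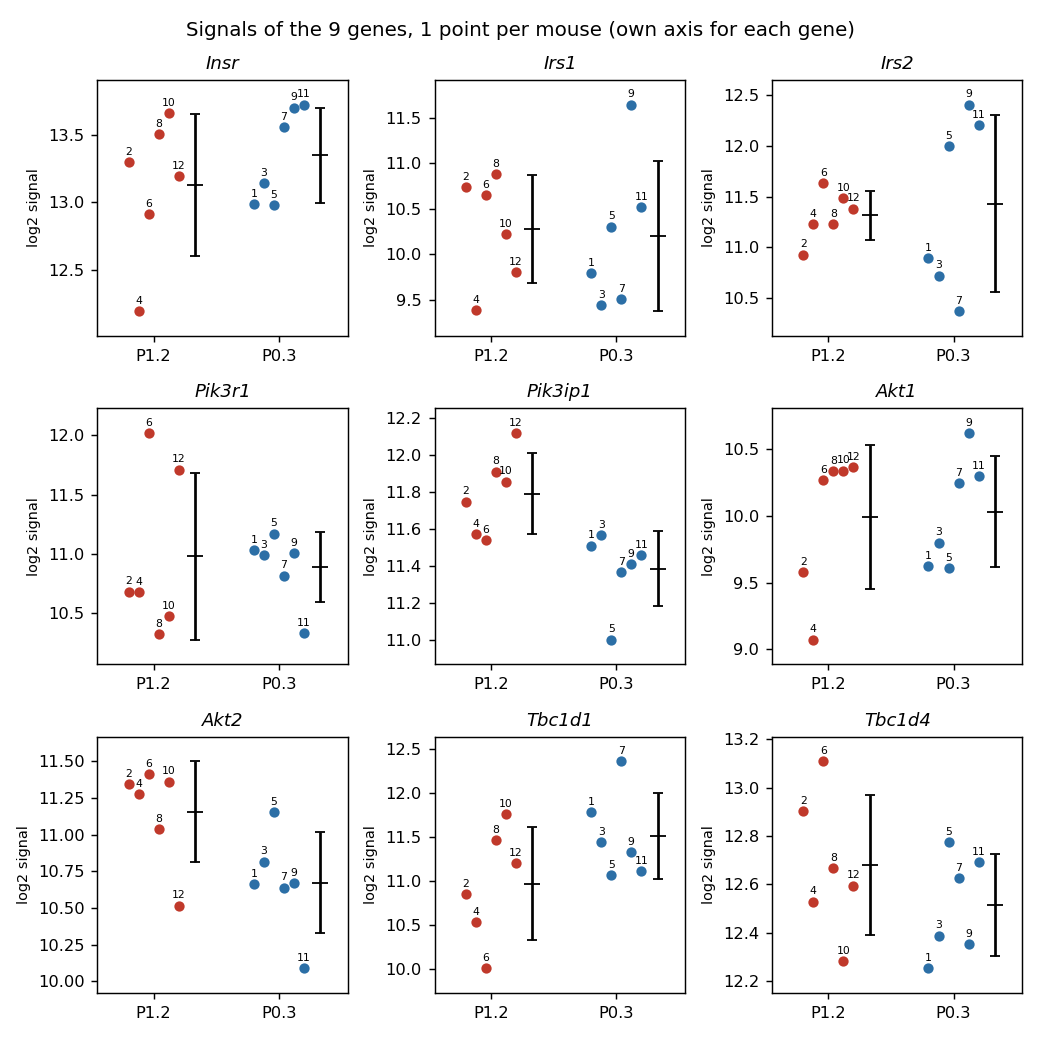
Signals of the 9 genes in each mouse, P1.2 in red on the left and P0.3 in blue on the right of each panel. The y axis is the log2 signal, each panel has its own axis, points carry the mouse number, and the bars beside them are the mean and SD of 6 mice. For Akt2 and Pik3ip1 most P1.2 points lie above the P0.3 points, while for Irs2 the P0.3 points fall above and below all P1.2 points.

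Insr encodes the insulin receptor itself (NM_010568, chr8:3150922-3279617, minus strand, as the array annotation gives it). Its log2 signal ran from 12.19 to 13.66 with a median of 13.25 in the P1.2 group. In the P0.3 group it ran from 12.98 to 13.72 with a median of 13.35. P1.2 mouse 4, at 12.19, was by far the lowest, and the other P1.2 mice lay within or just under the P0.3 range. The log2 fold change was -0.22 with a standard error of 0.23 (95% interval -0.70 to 0.26, limma p = 0.349, two-sided exact permutation p = 0.439). Without P1.2 mouse 4 it was -0.034.

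Irs1, the main adaptor of the receptor in muscle, lies at chr1:82233101-82291439 on the minus strand. Its signal spanned 9.38 to 10.88 with a median of 10.44 in the P1.2 group. It spanned 9.44 to 11.65 with a median of 10.05 in the P0.3 group. The groups overlapped over nearly their whole range, and P0.3 mouse 9 was the highest of all mice. The log2 fold change was 0.08 with a standard error of 0.34 and a 95% interval of -0.65 to 0.80, so that neither a 1.3-fold rise nor a 1.3-fold fall lies outside it (limma p = 0.823, exact permutation p = 0.844). It was 0.37 without P0.3 mouse 9, and 0.52 with a standard error of 0.30 without the 4 arrays rich in slow fibre genes, still short of the criteria.

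Irs2, the second adaptor, which is best known for its control by feeding in liver, lies at chr8:10986961-11008458 on the minus strand. The 6 P1.2 mice had signals of 10.93 to 11.63 with a median of 11.31. The P0.3 mice had signals of 10.37 to 12.41 with a median of 11.44. All P1.2 mice lay inside a gap in the P0.3 values. P0.3 mice 5, 9 and 11 were above every P1.2 mouse at 12.00, 12.41 and 12.21, and P0.3 mice 1, 3 and 7 were below every P1.2 mouse at 10.89, 10.72 and 10.37. The SD was thus 0.25 in the P1.2 group and 0.87 in the P0.3 group (n = 6 each), a difference in spread that was not tested. Since the P0.3 values lay on both sides, the means were close, and the log2 fold change was -0.12 with a standard error of 0.31 (95% interval -0.77 to 0.54, limma p = 0.707, exact permutation p = 0.751). Among P0.3 mice, numbers 9 and 11 were also rich in slow fibre genes, while number 5 was not, and without the 4 arrays rich in slow fibre genes the log2 fold change was 0.40 with a standard error of 0.29.

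Pik3r1 encodes the regulatory subunit p85 alpha of PI3-kinase, which binds the phosphorylated adaptors (chr13:101680761-101768217, minus strand). In the P1.2 group its signal was 10.32 to 12.02 with a median of 10.68. In the P0.3 group it was 10.33 to 11.17 with a median of 10.99. P1.2 mice 6 and 12 stood above all P0.3 mice at 12.02 and 11.71, and the remaining P1.2 mice lay in the lower part of the P0.3 range or just below it. The log2 fold change was 0.09 with a standard error of 0.27 (95% interval -0.48 to 0.65, limma p = 0.741, exact permutation p = 0.764). The same mice 6 and 12 were the highest for the glucocorticoid and fasting genes, and without them the log2 fold change of Pik3r1 was -0.35 with a standard error of 0.18, short of the criteria.

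Pik3ip1 encodes a membrane protein that binds the catalytic subunit of PI3-kinase and lowers its activity (chr11:3330401-3342971, plus strand). Its signal was 11.54 to 12.12 with a median of 11.80 in the P1.2 group. In the P0.3 group it was 11.00 to 11.57 with a median of 11.43. Of the P1.2 mice, 5 of 6 exceeded the highest P0.3 mouse, number 3 at 11.57, and the exception was P1.2 mouse 6 at 11.54. One of the 5, P1.2 mouse 4, exceeded it only barely, at 11.571 against 11.567. Pik3ip1 was 1.32-fold higher in P1.2 mice, by 0.40 on the log2 scale, with a standard error of 0.14 and a 95% interval of 0.10 to 0.71 (limma p = 0.0124, exact permutation p = 0.0043, adjusted limma p = 0.9999). Means were 11.79 ± 0.22 in the P1.2 group and 11.39 ± 0.20 in the P0.3 group (SD, n = 6 each), which is a small spread. Its SD within diets was larger than that of only 14.3% of the 1000 transcripts nearest to it in mean signal. The fold change was just past the criterion, and it was 0.33 without P0.3 mouse 5, the lowest mouse, and 0.34 without P1.2 mouse 12, the highest. Without the 4 arrays rich in slow fibre genes 4 mice per diet were left, the value was 0.36 with a standard error of 0.19, and the call was lost. With the slow fibre mean as a covariate it was 0.40 with a standard error of 0.14, and the call was kept. Without P1.2 mice 6 and 12, the highest for the glucocorticoid and fasting genes, it was 0.39 and kept too.

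Akt1 encodes the AKT isoform that is present in most tissues and is tied to growth (chr12:112653821-112674884, minus strand). Its signal was 9.07 to 10.36 with a median of 10.30 in the P1.2 group. In the P0.3 group it was 9.61 to 10.62 with a median of 10.02. P1.2 mice 2 and 4 were the lowest of all mice, and the other P1.2 mice lay close together near the upper P0.3 values. The log2 fold change was -0.04 with a standard error of 0.24 (95% interval -0.56 to 0.47, limma p = 0.871, exact permutation p = 0.905).

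Akt2, whose loss in mice and humans impairs the insulin response of muscle and liver, lies at chr7:27591552-27640826 on the plus strand. The signals of P1.2 mice were 10.51 to 11.41 with a median of 11.31. Those of P0.3 mice were 10.09 to 11.15 with a median of 10.66. Of the 6 P1.2 mice, 4 were above every P0.3 mouse and 5 were above the P0.3 mean, and the low one was P1.2 mouse 12. The lowest P0.3 mouse was number 11, and both low mice had arrays rich in slow fibre genes. The other arrays rich in slow fibre genes were not low for Akt2, with P1.2 mouse 2 at 11.34, above every P0.3 mouse, and P0.3 mouse 9 at 10.67, near the P0.3 median. Akt2 was higher in P1.2 mice by 0.49 on the log2 scale, with a standard error of 0.19 and a 95% interval of 0.09 to 0.89 (limma p = 0.0198, exact permutation p = 0.0368, adjusted limma p = 0.9999). Its means were 11.16 ± 0.34 in the P1.2 group and 10.67 ± 0.34 in the P0.3 group (SD, n = 6 each). The difference was 0.46 without the 4 arrays rich in slow fibre genes, 0.58 without P1.2 mice 6 and 12 and 0.49 with the slow fibre mean as a covariate, and it kept its call in each of these fits. Without P0.3 mouse 11 it was 0.37 with a standard error of 0.18 and missed the criteria.

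Tbc1d1 and Tbc1d4 encode the Rab GTPase-activating proteins at the end of the route. Tbc1d1 (chr5:64159451-64351486, plus strand), which also takes a signal from AMPK during contraction, had signals of 10.01 to 11.76 with a median of 11.03 in the P1.2 group and 11.07 to 12.36 with a median of 11.38 in the P0.3 group. The groups overlapped in part, as P1.2 mice 2, 4 and 6 lay below all P0.3 mice at 10.85, 10.53 and 10.01, while P1.2 mice 8, 10 and 12 lay among them. The log2 fold change of Tbc1d1 was -0.55, which was the largest in size of the 9 genes, but its standard error of 0.28 was also among the largest (95% interval -1.14 to 0.05, limma p = 0.0682, exact permutation p = 0.134). It therefore did not pass the criteria. The value moved both ways with single arrays. It was -0.35 without P1.2 mouse 6 and -0.38 without P0.3 mouse 7, both under 1.3-fold. In 4 of the 12 fits that left out a single array it passed the criteria: the value was -0.64 without P1.2 mouse 8, -0.70 without P1.2 mouse 10, -0.63 without P0.3 mouse 5 and -0.63 without P0.3 mouse 11.

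Tbc1d4 (chr14:101442360-101609191, minus strand), also called AS160, is the main AKT substrate in GLUT4 traffic. Its signal was 12.28 to 13.11 with a median of 12.63 in the P1.2 group, and 12.25 to 12.78 with a median of 12.51 in the P0.3 group. P1.2 mice 2 and 6 lay above all P0.3 mice, and the other P1.2 mice lay within the P0.3 range. The log2 fold change was 0.17 with a standard error of 0.16 (95% interval -0.17 to 0.50, limma p = 0.307, exact permutation p = 0.284). Without P1.2 mouse 6 it was 0.081.

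**Figure D2:**
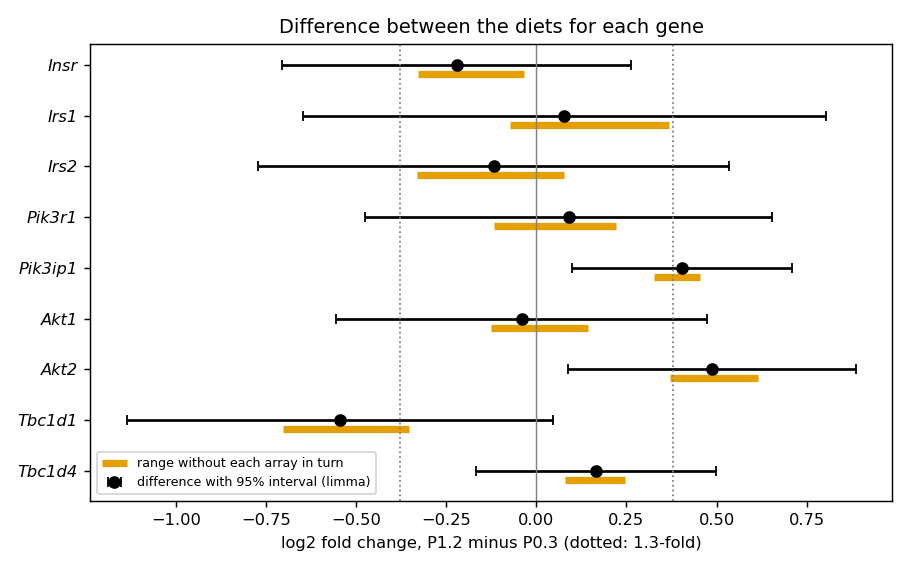
Log2 fold change, P1.2 minus P0.3, of each gene (x axis), with the 95% interval from limma as black bars and, as orange bars, the range of the value when each array is left out in turn. The intervals of Pik3ip1 and Akt2 lie above 0, at 0.10 to 0.71 and 0.09 to 0.89, and those of the other 7 genes include 0.

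The 3 pairs of related genes were also set against each other within each mouse, a comparison added after the values had been seen. The difference of a pair within a mouse carries the unlike probes of its genes, so that only its shift between the diets was read. Akt2 minus Akt1 was 0.15 to 2.21 with a median of 1.08 in the P1.2 group and -0.21 to 1.54 with a median of 0.71 in the P0.3 group. The shift of 0.53 did not pass (exact permutation p = 0.223, adjusted over 3 pairs p = 0.334). Tbc1d4 minus Tbc1d1 was 0.52 to 3.10 with a median of 1.70 in the P1.2 group and 0.27 to 1.71 with a median of 0.99 in the P0.3 group, a shift of 0.71 (exact permutation p = 0.134, adjusted p = 0.334). Irs2 minus Irs1 shifted by -0.20 (exact permutation p = 0.548). A difference between Akt2 and Akt1 in their response to the diet was thus not shown.

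The 9 genes differed in how much they varied among mice of the same diet. Set against the 1000 transcripts nearest in mean signal, the SD within diets was larger than that of 94.7% for Irs1, 93.2% for Irs2, 90.5% for Tbc1d1 and 88.4% for Pik3r1. Akt1 stood at 83.0% and the receptor gene Insr at 71.2%. Akt2 lay near the middle at 55.6%, and Tbc1d4 and Pik3ip1 varied less than most at 28.5% and 14.3%. By this SD, which pools the diets, both adaptor genes were thus among the most variable transcripts of their signal range. The SD of Irs2 was 0.25 in the P1.2 group and 0.87 in the P0.3 group, so its place rested on P0.3 mice. For Pik3r1 the larger SD was in the P1.2 group, at 0.71 against 0.30.

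Further genes of the insulin route were taken from a list of 110 in 7 roles. Of these, 2 were higher in the P1.2 group at the study criteria, 0 were lower and 108 did neither, which is 1.82% at the criteria against 2.28% of all transcripts in both directions together. Its median log2 fold change was -0.01, as it was for all transcripts, and 52 of the 110 values were positive. Socs1, which encodes an inhibitor that binds the receptor and the adaptors, had signals of 4.37 to 5.98 with a median of 4.71 in the P1.2 group and 4.14 to 4.75 with a median of 4.39 in the P0.3 group. Its log2 fold change was 0.61 with a standard error of 0.26 (limma p = 0.0318, exact permutation p = 0.0606), but its mean of 4.71 lay in the dim range, and only 2 P1.2 mice were above all P0.3 mice. Pak1, a kinase downstream of RAC1 that remodels actin for GLUT4 traffic, had signals of 10.29 to 11.02 with a median of 10.55 in the P1.2 group and 9.73 to 10.71 with a median of 10.14 in the P0.3 group. Pak1 was higher by 0.38 on the log2 scale, just past 1.3-fold, with a standard error of 0.17 (limma p = 0.0428, exact permutation p = 0.0584). Neither gene passed with the methods' test, which called 0 of the 110 genes. Akt2 and Pik3ip1 passed with it, on the same signals. Of all 22206 transcripts the methods' test called 142 higher and 222 lower.

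By role, 0 of 16 other receptor and adaptor genes, 0 of 10 other PI3-kinase subunits, 0 of 8 other AKT and upstream kinase genes and 0 of 8 AMPK genes passed the study criteria. The receptor and adaptor genes had a median of -0.10, and 3 of the 16 were positive. Of the 26 inhibitors Socs1 alone passed. Of the 22 genes of GLUT4 vesicle traffic Pak1 alone passed, the median was 0.06 and 17 of the 22 values were positive. Positive values were found in 5 of 10 PI3-kinase subunits, 3 of 8 AKT and upstream kinase genes and 2 of 8 AMPK genes. They were found in 13 of 26 inhibitors, 9 of 20 AKT targets and 10667 of all 22206 transcripts. These counts were not tested. None of 20 AKT targets passed. Among them Foxo1, the forkhead factor that AKT keeps out of the nucleus, was named after its values were seen: it had signals of 6.50 to 9.04 with a median of 7.15 in the P1.2 group and 6.57 to 7.01 with a median of 6.89 in the P0.3 group. For Foxo1, 5 of 6 P1.2 mice lay above all P0.3 mice and the sixth lay below all of them, with a log2 fold change of 0.57 and a standard error of 0.30 (limma p = 0.0788, exact permutation p = 0.0823).

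**Figure D3:**
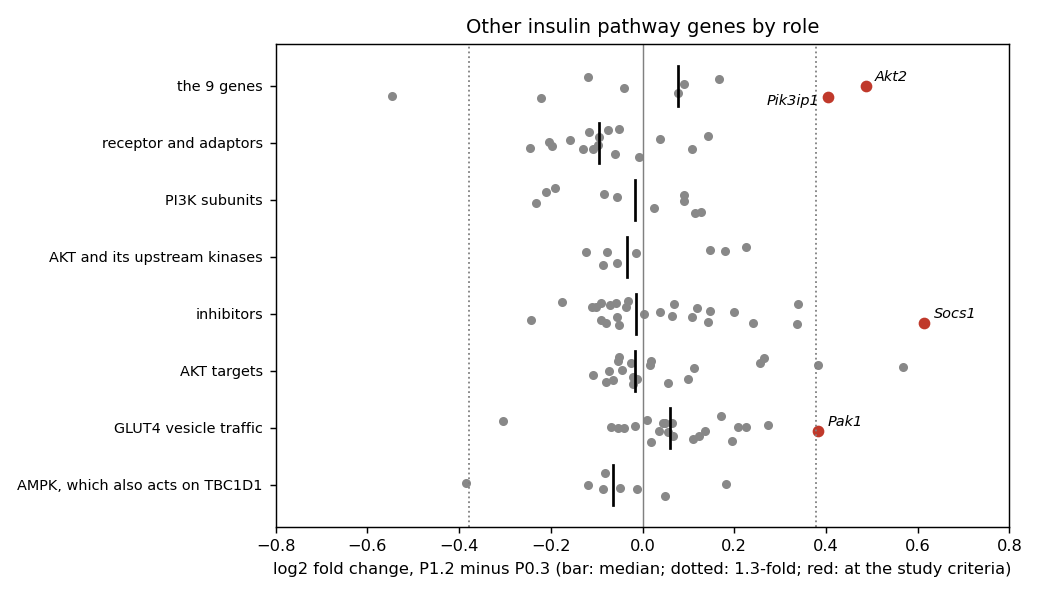
Log2 fold change, P1.2 minus P0.3 (x axis), of the 9 genes and of 110 other insulin pathway genes by role, 1 point per gene, with the median of each role as a black bar and genes at the study criteria in red. Points scatter around 0 in each role, from -0.39 to 0.61 over the 110 genes, and the 4 red points all lie on the side of the P1.2 group.

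Across the 12 arrays, the 9 genes did not vary together as a block. Signals were centred on the mean of each diet, and 36 pairs were compared. The median r was 0.05, and 19 of the 36 pairs had a positive r. For 4 pairs the permutation p of r was under 0.05, and 1 pair passed after adjustment over the 36. The permutations shuffled the centred signals over all 12 arrays, across the diets. They do not allow for the diet means that were removed, so these p-values are somewhat too low and the pass is not secure. That pair was the receptor gene Insr and Akt1, with Pearson's r = 0.82 (permutation p = 0.00097, adjusted p = 0.0349) and Spearman's rho = 0.69 (permutation p = 0.0151, adjusted p = 0.33). It held within both diets, with r = 0.75 in the P1.2 group and r = 0.96 in the P0.3 group, and r was 0.61 without P1.2 mouse 4 and P0.3 mouse 5. The rank measure did not pass after adjustment. A relation this close was not particular to the pair, as 38 of 11100 brighter transcripts had an r over 0.9 with Insr and 34 with Akt1.

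The other 3 pairs did not pass after adjustment. Pik3ip1 and Akt2, both higher in the P1.2 group, ran in opposite directions within the diets, with r = -0.71 and rho = -0.68 (permutation p = 0.0106, adjusted p = 0.178). Within the P1.2 group r was -0.83 and within the P0.3 group it was -0.58. P1.2 mouse 12, for example, had the highest Pik3ip1 and the lowest Akt2 of its group. Irs1 and Irs2 had r = 0.68 and rho = 0.59 (permutation p = 0.0148, adjusted p = 0.178), but r was -0.10 within the P1.2 group, where Irs2 varied little, and 0.89 within the P0.3 group, a difference that was not tested. Tbc1d1 and Tbc1d4 had r = -0.58 and rho = -0.50 (permutation p = 0.049, adjusted p = 0.346), and within the P1.2 group r was -0.77 against -0.24 in the P0.3 group.

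The signals were also set against the means of 3 marker lists. Pik3r1 followed the adipocyte markers, a list added after the values had been seen, with r = 0.81 (permutation p = 0.00114, adjusted over 27 relations p = 0.0308) and rho = 0.76 (adjusted p = 0.143). The adjustment does not cover the choice of this list from the 11 marker lists, and the permutations shuffled centred signals across the diets. The adjusted p for r is therefore too low by an unknown amount, and a pass is not shown. Within the P1.2 group r was 0.87, within the P0.3 group it was 0.67, and without P1.2 mice 6 and 8 it was 0.66. With the adipocyte mean as a covariate the diet difference of Pik3r1 was -0.001. The relation may not be particular to adipocyte markers. P1.2 mice 6 and 12, the highest for Pik3r1, were also the highest P1.2 mice for the macrophage markers, at 8.17 and 8.51. They were the highest for the fibroblast markers too, at 10.57 and 11.99, while for the endothelial markers mouse 6 was not high, at 9.24. The relation of Pik3r1 to these lists was not tested. With the glucocorticoid and fasting genes, r was 0.69 for both Akt1 and Pik3r1 (permutation p = 0.011 and p = 0.0142, adjusted p = 0.128 for each). For Pik3r1 this rested on the P1.2 group, since r was -0.64 within the P0.3 group and rho over all arrays was 0.44. For Akt1 rho was 0.69, and r was 0.71 within the P1.2 group and 0.89 within the P0.3 group. Because the slow fibre genes fell into separate clusters of arrays, no r over all arrays is given for them, and within the 8 arrays low in slow fibre genes r lay between -0.21 for Tbc1d1 and 0.46 for Pik3ip1 (lowest exact permutation p = 0.242, adjusted p = 0.960).

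**Figure D4:**
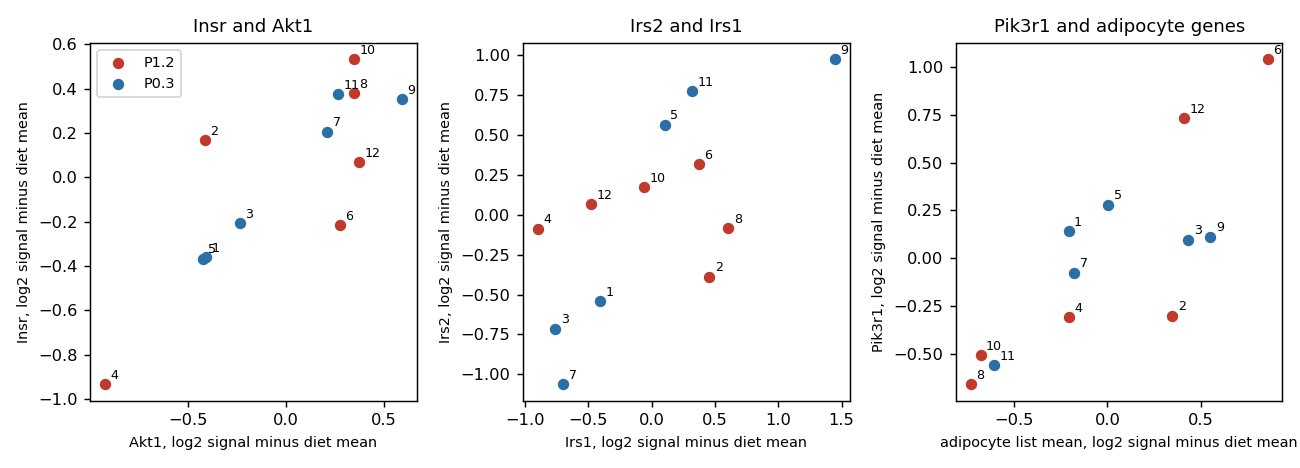
Pairs of measures across the 12 mice, each as log2 signal minus the mean of its diet, with P1.2 in red and P0.3 in blue and points numbered by mouse. Insr follows Akt1 in both diets (r = 0.82), Irs2 is plotted against Irs1 (r = -0.10 among P1.2 mice, 0.89 among P0.3 mice, with the difference not tested), and Pik3r1 follows the mean of the adipocyte markers (r = 0.81).

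For each gene the transcripts with the most similar pattern were sought among the 11100 brighter transcripts, by r over the 12 arrays after centring on each diet. These are the highest of 11100 values and are given as a description. Insr was most like Rps15a, a ribosomal protein gene (r = 0.95), and Bax, a gene of programmed cell death (r = 0.95), and 38 transcripts had an r over 0.9 with it. Akt1 was most like Pnpla7, a lysophospholipase gene (r = 0.95), and Slc41a2, a gene of the magnesium transporter family (r = 0.95), with 34 transcripts over 0.9. The other 7 genes had few such partners, between 0 and 4. Pik3ip1 was most like Nxn, which encodes the redox protein nucleoredoxin (r = 0.95), and Cds2, a gene of phosphatidylinositol synthesis (r = 0.92). Akt2 was most like the Golgi gene Golga3 (r = 0.92) and the zinc finger gene Zfp24 (r = 0.91). Irs1 was most like the mitochondrial transporter gene Abcb8 (r = 0.93) and Abhd14a (r = 0.87). Irs2 was most like the mitochondrial ribosomal gene Mrps31 (r = 0.91) and Cyr61, a matricellular protein gene (r = 0.90). Pik3r1 was most like the DNA repair gene Xrcc1 (r = 0.91) and Lox, which cross-links collagen (r = 0.90). Tbc1d1 was most like the syntaxin gene Stx2 (r = 0.92) and AI314180 (r = 0.90). No transcript reached 0.9 with Tbc1d4, whose nearest were AW209491 (r = 0.83) and the clathrin uncoating kinase gene Gak (r = 0.82).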

How the data were processed

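The authors hybridised total RNA of each mouse to 1 Clariom S mouse array and computed log2 signals per transcript cluster in Expression Console (version 1.4) by GCCN-SST-RMA, which corrects for GC content, rescales the arrays and summarises probes. The deposited log2 signals were used as they are. The authors also deposited these log2 signals with 2 decimals, as an extra table. Columns with the authors' group means, fold changes and p-values were not used. Diets were taken from the labels, which name no batch or scan date.

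Each of the 22206 transcripts was fitted with limma (version 3.58.1, R version 4.3.3, lmFit and eBayes without trend), with differences taken as P1.2 minus P0.3 and Benjamini-Hochberg adjustment across the whole table. Single genes were also tested by exact permutation (two-sided, all 924 ways to divide the arrays, smallest p 0.0022). Correlations used 100000 permutations, which shuffled diet-centred signals across both diets, so their p-values are somewhat too low. The methods' test is Student's test with equal variances, which the study's methods name. Further tools were matplotlib 3.10.9, pandas 2.3.3, scipy 1.17.1 and numpy 2.4.6 under Python 3.11.15, and the fit was tested on simulated data.

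The genes, lists and markers were chosen with earlier results of these data known. All 9 genes are named, with the genes of the 110 at the study criteria and, per gene, the 2 transcripts most like it. Alternatives were the methods' test, unequal variances, a robust and trended prior, array weights, quantile normalization, median centring, the rounded table, slow fibre and adipocyte covariates and leaving out arrays. The array annotation names no genome build. Of 20564 clusters with a symbol in RefSeq's GRCm38.p6 table, 20459 lay on the same chromosome and 13393 shared a start or an end. An array gives no counts, so precision is limited by how many arrays there are.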

Additional observations from a re-analysis of the deposited data

Results flagged for a closer look

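In Pik3ip1, P0.3 mouse 5 lay far from the other mice of its diet, at a log2 signal of 11.00, where the nearest was 11.37. This gap was 0.648 of the whole range of the P0.3 group, above the limit of 0.625 for 6 samples. It was the 1 case in 18 groups of the 9 genes, where chance alone gives about 1 in 20. Without this mouse the log2 fold change of Pik3ip1 was 0.33 with a standard error of 0.14, which is under 1.3-fold.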

How the results depend on the processing

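For each of the 9 genes, 23 alternatives were run. Insr and Tbc1d4 kept their direction and stayed short of p under 0.05 in all of them, but when each array was left out in turn their log2 fold changes ran from -0.33 to -0.034 and from 0.081 to 0.25. Akt2 and Pik3ip1 stayed higher in the P1.2 group in all, with p under 0.05 in 22 of 23 each. The count of the 9 genes higher at the study criteria was 1 with quantile normalization, where Pik3ip1 was at 0.38, just under 1.3-fold, and 1 without the 4 arrays rich in slow fibre genes, where its p was over the threshold at 0.0768. Leaving out each array in turn gave 1 to 2 higher and 0 to 1 lower, the lower one being Tbc1d1, whose log2 fold change ran from -0.70 to -0.35. Near 0, directions turned. When each array was left out in turn, the log2 fold change ran from -0.074 to 0.37 in Irs1, from -0.33 to 0.077 in Irs2, from -0.12 to 0.22 in Pik3r1 and from -0.12 to 0.14 in Akt1. Without the 4 arrays rich in slow fibre genes it was 0.52 in Irs1, 0.40 in Irs2, -0.13 in Pik3r1 and 0.18 in Akt1. Pik3r1 was at -0.0011 with the adipocyte covariate and at -0.35 without P1.2 mice 6 and 12. The cause was not tested. Both subsets of arrays were chosen after the data were seen.

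Of the 110 other genes, the count higher was 0 with the methods' test and with unequal variances, and 1 with array weights, quantile normalization, the adipocyte covariate or without P1.2 mice 6 and 12. It was 3 with the slow fibre covariate, and 0 to 4 when each array was left out, with 4 without P1.2 mouse 2. The count lower was 1 with the slow fibre covariate and without the 4 arrays, and 0 to 1 when each array was left out. Of all transcripts, 204 were higher and 303 lower. The split was 240 higher and 213 lower with quantile normalization, and 287 higher and 203 lower with arrays centred on the median. The count higher was 142 with the methods' test, 134 with unequal variances and 325 without the 4 arrays. Testing only transcripts above the median signal, which are fewer, gave 98 higher and 46 lower. Leaving out each array gave 195 to 323 higher and 284 to 478 lower, both highest without P1.2 mouse 4, and 455 lower without P0.3 mouse 1. The correlation of Insr with Akt1 was 0.80 on signals as deposited and 0.82 after median centring.

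No paired analysis was possible because the diets share no replicate numbers. The mean of all rows of a gene was not run, because each of the 9 has 1 row. The median standard error over all transcripts was 0.18, so that a 1.3-fold difference, 0.38 on the log2 scale, is close to what 6 arrays per diet can call. Each of the 7 genes not called has an interval that reaches past 1.3-fold in at least 1 direction, and a smaller difference cannot be told from 0 here.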
